A study of Mus musculus with 4 samples.

Results

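The P2ry12 cluster is a group of genes for G protein-coupled receptors on mouse chromosome 3 that lies inside Med12l, a gene read in the opposite direction. The 5 genes described here are P2ry12, P2ry13, P2ry14, Gpr171 and Med12l, and they were chosen from the annotation, by taking every deposited row inside these genes or within 10000 bp of them. Because Med12l holds the other 4 genes, this was 1 stretch, chr3:58995825-59328682 on GRCm38 (332858 bp). It held 156 of the 269406 positions and 4 of the 3389 regions in the authors' deposited tables. The genes were picked with these methylation differences known, so the differences are given as a description and without a test.

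Methylation was measured by whole-genome bisulfite sequencing, in which unmethylated cytosine is converted and methylated cytosine is not, in microglia, the resident macrophages of the brain. There were 2 samples of genotype WT and 2 of genotype IRF8KO, named for the loss of the transcription factor IRF8, all from untreated C57BL/6J mice aged 3 months. The labels name no Cre line or promoter, give no allele, and do not say how many animals went into a sample. Each sample was DNA from 40000 sorted cells, so a change in methylation within cells and a change in the mix of cells cannot be told apart. The deposited tables compare a first with a second group without naming the genotype of either, and hold no value per sample. A difference below 0 is therefore called lower in the first group, no spread between replicates can be given, and neither can the number of reads behind a value. The authors' standard error (SE) is given in its place. Methylation tables offer no marker levels by which to check that the cells were microglia.

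Purinergic receptors sense nucleotides released by cells. P2ry12 encodes P2Y12, an ADP receptor coupled to Gi proteins that steers the processes of microglia towards sites of damage and is widely used as a marker of resting microglia. P2ry13 encodes a related ADP receptor and P2ry14 a receptor for UDP-glucose, while Gpr171 encodes a close relative that does not belong to the P2Y family by name. Med12l encodes a paralog of Med12, a subunit of the Mediator kinase module that links transcription factors to RNA polymerase II. The receptor genes carry nearly all of their coding sequence on a single exon, and for P2ry12 that exon lies at the far end of the gene from its first start site.

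Selected sequences with listed positions are shown from the RefSeq copy of the GRCm38 genome. Each listed position is in capitals and all other bases are in lower case. A listed position is a cytosine on either strand that the authors' deposited table names, so a CpG in capitals was listed on both strands, and a single capital outside a CpG was listed off CpG. The first 3 sequences are on the minus strand, in the reading direction of P2ry12, and give the start of its coding sequence, the end of the intron just before it, and the last part of the coding sequence.
P2ry12 coding start (chr3:59217953-59218252, minus): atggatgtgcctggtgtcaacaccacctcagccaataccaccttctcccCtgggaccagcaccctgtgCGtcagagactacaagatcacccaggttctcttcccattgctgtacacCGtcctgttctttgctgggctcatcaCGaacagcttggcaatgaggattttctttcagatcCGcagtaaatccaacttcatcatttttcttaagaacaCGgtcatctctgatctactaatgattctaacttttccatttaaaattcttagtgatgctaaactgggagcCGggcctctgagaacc
P2ry12 intron end (chr3:59218257-59218409, minus): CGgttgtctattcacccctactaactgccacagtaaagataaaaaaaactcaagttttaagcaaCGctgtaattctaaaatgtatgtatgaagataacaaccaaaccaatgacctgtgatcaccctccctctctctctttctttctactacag
P2ry12 coding end (chr3:59217226-59217475, minus): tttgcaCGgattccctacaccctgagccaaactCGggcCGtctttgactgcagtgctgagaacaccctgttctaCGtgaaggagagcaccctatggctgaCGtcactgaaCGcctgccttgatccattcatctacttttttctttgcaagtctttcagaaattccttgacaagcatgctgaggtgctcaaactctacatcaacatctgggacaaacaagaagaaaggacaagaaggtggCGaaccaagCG
The next sequence holds the lowest false discovery rate (FDR) of the stretch, in an intron of P2ry12, also on the minus strand.
P2ry12 intron pair (chr3:59225221-59225341, minus): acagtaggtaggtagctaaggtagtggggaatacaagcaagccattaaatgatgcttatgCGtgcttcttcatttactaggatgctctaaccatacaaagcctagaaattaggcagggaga
The last sequences are the whole region between P2ry14 and P2ry13, on the plus strand, and the 100 bases before the start of Gpr171, in its reading direction.
P2ry14 to P2ry13 (chr3:59174760-59175026, plus): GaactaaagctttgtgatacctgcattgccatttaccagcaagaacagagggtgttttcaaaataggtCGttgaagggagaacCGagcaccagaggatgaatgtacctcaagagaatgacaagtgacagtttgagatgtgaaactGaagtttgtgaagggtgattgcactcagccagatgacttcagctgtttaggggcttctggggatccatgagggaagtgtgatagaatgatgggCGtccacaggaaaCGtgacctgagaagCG
Gpr171 upstream (chr3:59101822-59101921, minus): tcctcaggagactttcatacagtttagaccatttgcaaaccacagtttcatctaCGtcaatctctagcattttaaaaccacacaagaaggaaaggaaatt

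Differences across the stretch leaned towards lower methylation in the first group. Of the 156 listed positions, 106 (67.9%) were lower and 50 were higher, while over all listed positions of the genome 38.1% were lower. Of the 106, 52 lay within 1409 bp at the coding exon of P2ry12. Outside the 4 regions, 51.6% of the listed positions of the stretch were lower. An FDR under 0.05 in the authors' deposited table was given to 50 of the 156 (32.1%), beside 18.7% of all listed positions. Of those 50, 45 (90.0%) were lower in the first group, beside 41.9% of all such positions. Absolute differences in the authors' deposited table had a median of 0.373 (quartiles 0.305 and 0.453) and a median SE of 0.108. Over the genome, the median absolute difference of listed positions was 0.329. No listed position of the genome had a posterior probability under 0.95 or an absolute difference under 0.126. These medians therefore describe a list from which smaller differences are absent. Listed positions made up 2.25% of the tested positions of the stretch, as estimated from the deposited row numbers, beside 0.63% of the genome. Of 7389 autosomal windows of the same length, 82 (1.11%) held at least as many listed positions, 77 (1.04%) at least as many with an FDR under 0.05, and 156 (2.11%) at least as many regions. These shares describe a stretch that was chosen with its differences known.

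The listed positions fell into 24 clusters, with gaps of over 500 bp between them. In part of the stretch, clusters of the same direction lay side by side. Whether their order differs from a random one was not tested. From the coding exon of Gpr171 to an intron of P2ry14, 5 clusters in a row with 39 positions were all higher in the first group. The next 8 clusters, with 78 positions between an intron of P2ry14 and an intron of P2ry12, were all lower and held 44 of the 50 positions with an FDR under 0.05. Farther into P2ry12 and towards the start of Med12l the directions were mixed. The last 2 clusters, with 11 positions near the end of Med12l, were both lower. No position in these parts had an FDR under 0.05, apart from 1 in Med12l at 59089331. Neighbours share values: where listed positions lay 1 bp apart, 52 of the 54 pairs (96.3%) had the same difference, and the 156 positions carried 72 distinct differences.

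**Figure D1:**
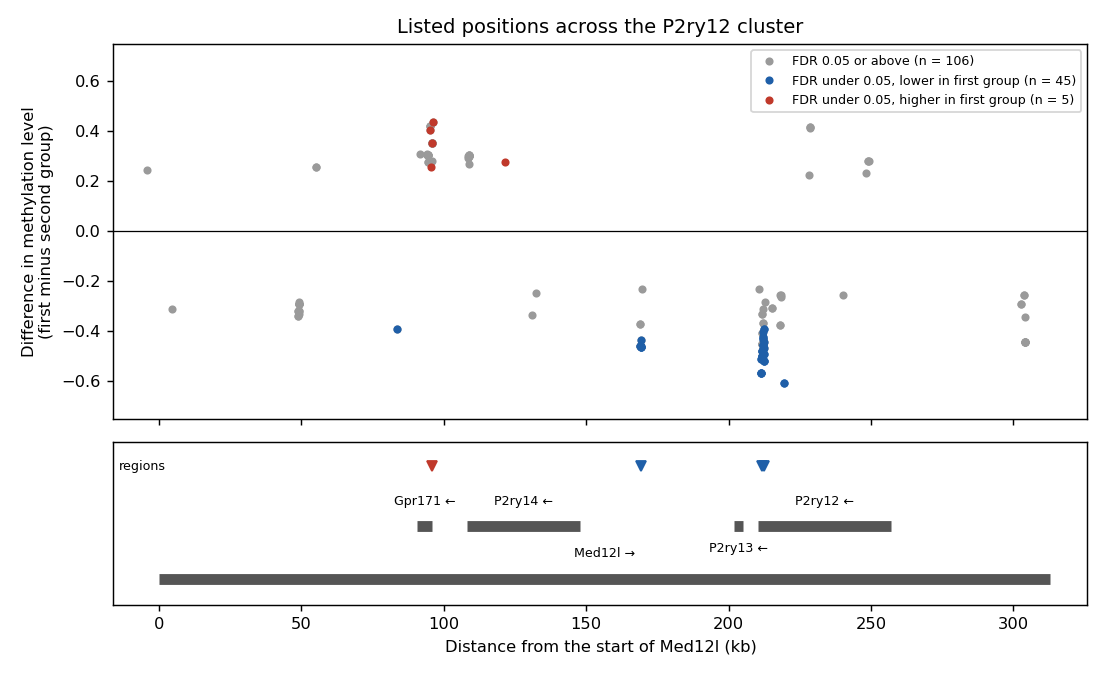
Upper panel: the difference in methylation level (first minus second group) of each of the 156 listed positions against the distance from the start of Med12l in kb, blue and red where the deposited FDR was under 0.05 and grey otherwise. Lower panel: the genes as bars with arrows for their direction, and the 4 regions as triangles (red higher, blue lower, 2 of them side by side at P2ry12); the 45 blue positions lie mostly at P2ry12 and between P2ry14 and P2ry13, and the 5 red ones at Gpr171 and in P2ry14.

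P2ry12 (ENSMUSG00000036353.13, chr3:59216272-59262871, minus strand) had the most listed positions of the receptor genes, 71, of which 63 were lower and 8 higher in the first group. All 36 of its positions with an FDR under 0.05 were lower. By number of listed positions the coding exon held most, 47 of the 71. All 22 CpGs of the coding sequence (1041 bp, 59217212 to 59218252) were listed and lower, and 30 of the 47 listed positions there had an FDR under 0.05 in the authors' deposited table. The differences of the 52 positions in and next to this exon in the authors' deposited table lay between -0.566 and -0.282, with SEs from 0.0730 to 0.124. No listed position of the exon went the other way.

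Both P2ry12 regions lie here. The first, chr3:59217226-59217674, covers the end of the coding sequence and had 24 cytosines and a difference of -0.490 in the authors' deposited table. All 24 positions lay on CpGs, and 15 had an FDR under 0.05. Its lowest FDR in the authors' deposited table was 0.000840 at 59217227 (difference -0.566, SE 0.111), in the CpG nearest the stop codon, the last letters of the coding end sequence. The second region, chr3:59217865-59218409, had 22 cytosines and -0.455 in the authors' deposited table, and 19 of its 22 positions had an FDR under 0.05. It runs from the coding sequence across the exon's edge, and its last 4 positions lie on both CpGs of the intron sequence shown. One of these, at 59218344, had the lowest FDR of the region, 1.4e-05 in the authors' deposited table (difference -0.491, SE 0.0821).

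Between both regions, 190 bp held 5 more listed positions that were also lower. They differed by -0.365 to -0.313 in the authors' deposited table, with FDRs from 0.445 to 0.959, so that the gap between the regions was a stretch of smaller differences and not of opposite ones. By the deposited row numbers, 51 tested positions in a row over 1184 bp were listed and lower, with no unlisted position between them. Of 132697 runs of the same direction in the whole table, single positions included, 7268 (5.48%) held at least 5 positions. At least 51 were held by 100 (0.0754%). This stretch held 20.3 CpGs per kb, against 10.2 over the whole stretch; what CpG density contributes to the length of the run was not tested. By the size of the area score, which sums the test statistics of a region, the P2ry12 regions ranked 409 and 415 of 3389, and by the absolute difference 505 and 872. Both therefore lie in the upper part of the list but far from its top.

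**Figure D2:**
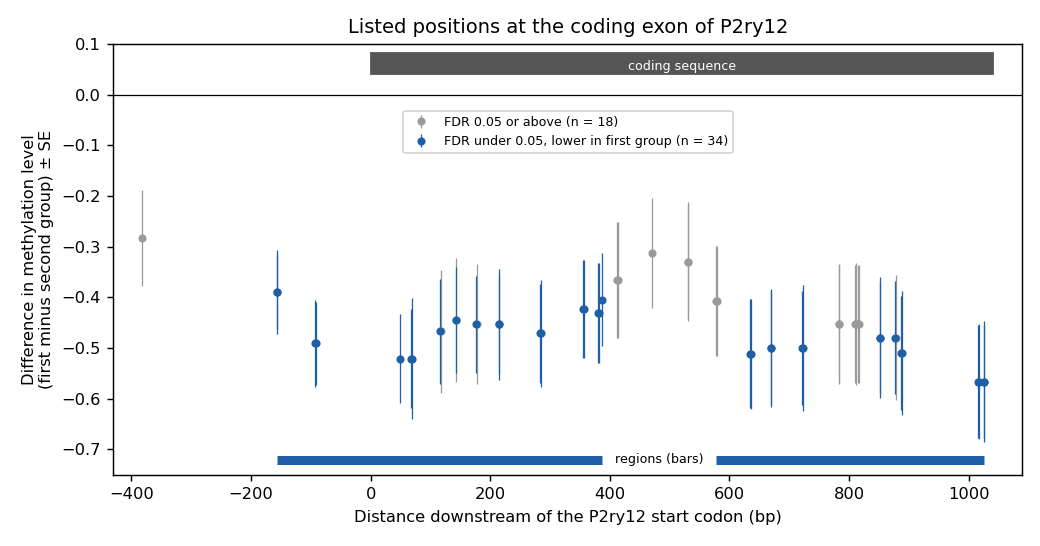
Difference in methylation level (first minus second group) with the deposited SE as bars, against the distance downstream of the P2ry12 start codon in bp, for the 52 listed positions at the coding exon; the dark bar marks the coding sequence and the blue bars both regions, and the C and G of a CpG lie almost on top of each other. All 52 differences are below 0, and the smallest in the coding sequence lie between the regions.

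The largest difference of the stretch lay outside any region. The CpG at 59225280 and 59225281, in an intron of P2ry12, differed by -0.606 on both strands in the authors' deposited table, with SEs of 0.103 and 0.0924 and FDRs of 2.04e-05 and 5.51e-07. Of all listed positions, 1.57% had an FDR as low and 0.903% a difference as large. This CpG stood alone: the nearest listed positions lay 1057 bp and 8925 bp away, with 8 and 158 tested but unlisted positions between by the row numbers. It lies 2300 bp inside a shorter P2ry12 transcript that starts at 59227581. Still shorter transcripts start at 59220259 and 59220200, and each had 2 listed positions within 1000 bp of its start, 59221024 and 59221026, with a difference of -0.309 in the authors' deposited table and neither with an FDR under 0.05.

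No listed position lay near the outer start of P2ry12. The longest transcripts start at 59262871 and 59262831, and the nearest listed position was 7883 and 7843 bp inside the gene, with a difference of 0.281 in the authors' deposited table. In the long first introns, 8 positions between 59234206 and 59254988 were higher in the first group, by 0.225 to 0.416 in the authors' deposited table, and their lowest FDR was 0.0601. The only other listed position there, at 59245847, was lower, and it is also the only one of the stretch in a coding exon of Med12l.

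P2ry13 (ENSMUSG00000036362.2, chr3:59207892-59210882, minus strand), the neighbouring ADP receptor gene, held no listed position. The nearest lay 5664 bp upstream of its start, in the last exon of P2ry12. On the other side the nearest was 32.7 kb away. Over the whole gap of 41.3 kb the row numbers count 911 tested positions, and none was listed. Both P2ry12 regions lie within 10000 bp of P2ry13 (6344 and 6983 bp from it), so a count by distance gives them to P2ry13 too, although the gene itself had none.

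P2ry14 (ENSMUSG00000036381.13, chr3:59113855-59153618, minus strand) had no region and 14 listed positions, 12 of them higher in the first group. A cluster of 11 in its 3′ UTR, from 59114326 to 59114719, was higher by 0.268 to 0.306 in the authors' deposited table, but its lowest FDR was 0.360. Only 1 position, in an intron at 59127450, had an FDR under 0.05, which was 0.0480 for a difference of 0.279 (SE 0.0693) in the authors' deposited table. That position is not on a CpG of the reference and lies in a repeat. The absolute differences at P2ry14 had a median of 0.303, against 0.452 at P2ry12, with overlapping ranges. Of the 14 at P2ry14, 13 did not pass the FDR threshold.

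The coding exons of the receptor genes differed in how many of their CpGs were listed. P2ry12 had 22 of 22, Gpr171 had 1 of 14, and P2ry14 and P2ry13 had 0 of 30 and 0 of 25. Row numbers, spread evenly between listed positions, placed an estimated 29 and 22 tested positions in the exons of P2ry14 and P2ry13. These estimates ignore CpG density, which was 28.9 and 24.7 per kb in these exons against 10.2 over the whole stretch. The number tested in each exon is therefore not known. In the 41.3 kb gap that holds P2ry13, 911 positions were tested, beside 844 CpG positions of the reference. An unlisted position has no value here, and its absence from the list does not show that the level was equal in both groups.

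**Figure D3:**
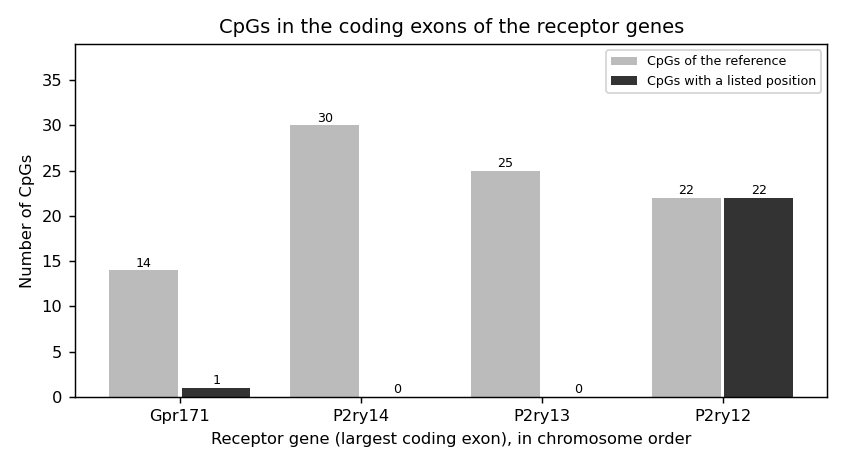
Number of CpGs (vertical axis) of the reference in the largest coding exon of each receptor gene (light bars) and of those with a listed position on either strand (dark bars), in chromosome order. In P2ry12 all 22 were listed, in Gpr171 1 of 14, and in the other genes 0.

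Between P2ry14 and P2ry13, a region of 267 bp at chr3:59174760-59175026 was lower in the first group. It lies in an intron of Med12l. The authors' deposited table gives 12 cytosines and a difference of -0.448. Of the 12 positions, 8 had an FDR under 0.05, and 11 lay on CpGs. Single positions differed by -0.462 to -0.370 in the authors' deposited table. The lowest FDR, 5.83e-05, belonged to the position off CpG at 59174905 (difference -0.458, SE 0.0805), the single capital in the middle of the sequence shown (the capital at its left edge belongs to a CpG that starts 1 bp outside). With the next position on its left, 13 tested positions in a row were listed and lower.

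Gpr171 (ENSMUSG00000050075.8, chr3:59096448-59101821, minus strand) went the other way. All 25 listed positions of the gene, and 2 just before its start, were higher in the first group, and they were listed from the coding exon at 59097633 to 59101867. Of these 27, 4 had an FDR under 0.05, beside 18.7% of all listed positions. One of the 4 lay 46 bp before the start site, at 59101867, in the CpG shown in the upstream sequence. It had a difference of 0.436 (SE 0.100) and an FDR of 0.0173 in the authors' deposited table. The lowest FDR, 0.00245, was that of a CpG in the intron at 59101253 with a smaller difference of 0.257 (SE 0.0529) in the authors' deposited table. Gpr171 was the only gene of the cluster with listed positions within 1000 bp of its outermost start site, and there were 17.

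The Gpr171 region had fewer cytosines and a lower rank than the other 3. It spans 86 bp in the first exon, a 5′ UTR, at chr3:59101721-59101806, and the authors' deposited table gives 5 cytosines and a difference of 0.352. All 5 share this same difference, 4 of the 5 are off CpG in the reference, and 1 had an FDR under 0.05 (0.0440 in the authors' deposited table). No whole CpG of the reference lies inside the region. Its area score ranked 2625 of 3389.

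**Figure D4:**
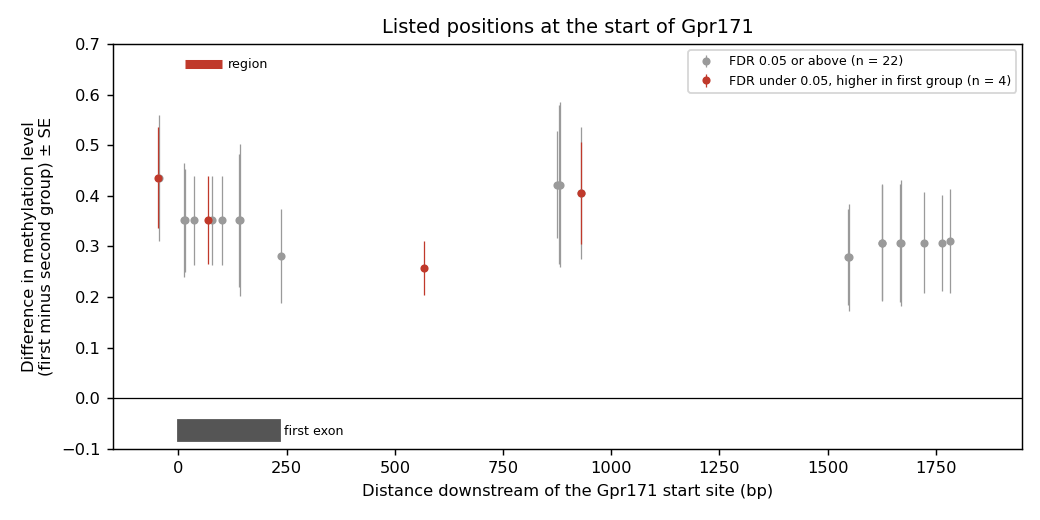
Difference in methylation level (first minus second group) with the deposited SE as bars, against the distance downstream of the Gpr171 start site in bp, for the 26 listed positions from 46 bp before the start into the intron; red marks an FDR under 0.05, the dark bar the first exon and the red bar the region. All 26 differences are above 0, and the 4 red ones are spread from before the start to the intron.

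Outside the receptor genes, Med12l (ENSMUSG00000056476.13, chr3:59005825-59318682, plus strand) had no region other than those described, which all lie within it. None of its start sites had a listed position within 1000 bp. A cluster of 13 positions in an intron, from 59054695 to 59055030, was lower by -0.339 to -0.285 in the authors' deposited table, with a lowest FDR of 0.536. Another 9, from 59309636 to 59310002, were lower by -0.444 to -0.253, with a lowest FDR of 0.267 in the authors' deposited table. The position at 59089331 had an FDR of 0.0129 and a difference of -0.390 (SE 0.0882) in the authors' deposited table, and it is not on a CpG of the reference.

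No other region lay close to the 4. Autosomal windows of the same length held a median of 0 regions, so wide spacing between regions was common. The nearest regions outside the stretch were 476 kb before it, 165 bp from Serp1 and 6169 bp from Eif2a (0.345 in the authors' deposited table), and 1413 kb after it (-0.415 in the authors' deposited table). At the edges set by the 10000 bp limit, the outermost listed positions inside had differences of 0.244 and -0.444 and the nearest outside -0.407 and 0.305 in the authors' deposited table, and none of the 4 had an FDR under 0.05. Of all 3389 regions, 46.7% were lower in the first group, against 3 of the 4 here.

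**Figure D5:**
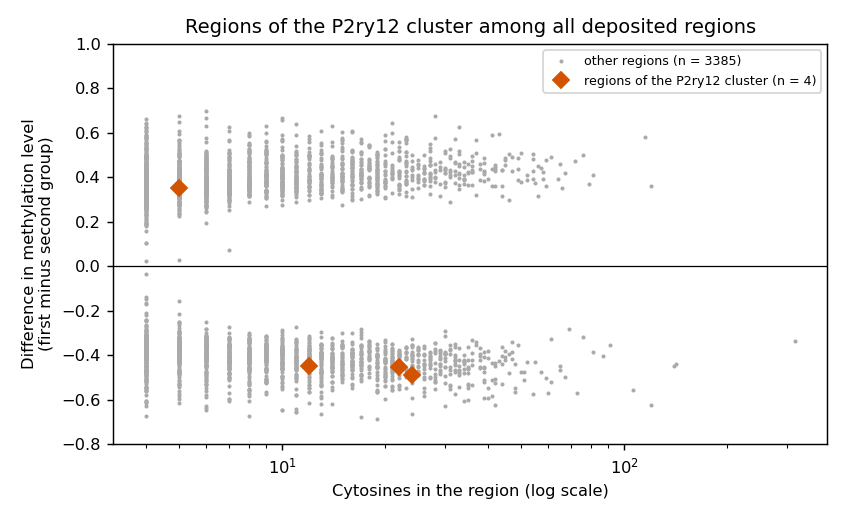
Difference in methylation level (first minus second group) against the number of cytosines (log scale) for the 3389 deposited regions, with the 4 regions of the P2ry12 cluster as diamonds. Both P2ry12 regions have more cytosines than most, and all 4 lie within the spread of the other regions.

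The regions were searched on both strands, in windows of 300 bp around their middle, for the ETS core (GGAA) followed after 2 bases by the IRF core (GAAA), the composite element bound by IRF8 with ETS partners. It was present in 1 of the 4 windows, that of Gpr171, as GGAAAGGAAA at chr3:59101824-59101833 on the minus strand, 17 bp from the nearest listed position and outside the region itself. Of the windows of all 3389 regions, 11.2% held it, with 21.3% of those lower and 2.38% of those higher in the first group. Neither P2ry12 window, nor the windows of the region between P2ry14 and P2ry13 and of the intron pair, held these letters. A pair of IRF cores (GAAA, 2 bases, GAAA) and the AP-1 motif TGANTCA were in none of the 4 windows, against 5.31% and 12.4% of all. The ETS core alone was in all 4, as in 97.1% of all windows, and it is part of the composite element.

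Other genes of purine signalling, of related orphan and lipid receptors and of the Mediator kinase module were taken from lists of 49 genes. A region lay in or within 10000 bp of 5 of the 49, beside 9.19% of all 21938 protein-coding genes. A position with an FDR under 0.05 lay in or near 15 of the 49, beside 30.8% of all genes. Both shares are close to those of all genes. Of the 6 other P2Y receptor genes, 0 had a region and 1 had such a position. Of the 10 genes for enzymes that act on nucleotides and adenosine, 0 had a region and 3 had such a position, and of the 7 signalling partners of P2Y12 0 had a region and 2 had such a position. The 9 related orphan and lipid receptor genes had 0 with a region and 4 with such a position.

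Among the receptors with a region, Adora3, an adenosine receptor gene, had 3, all lower in the first group by -0.470 to -0.362 in the authors' deposited table, and it overlaps Tmigd3, so they cannot be given to one gene. Adora1, another adenosine receptor gene, had 1 region 4351 bp past its end, in a coding exon of Mybph (chr1:134194375-134194872), with -0.452 in the authors' deposited table. P2rx7, an ATP-gated channel gene, had 1 in an intron (chr5:122669305-122669501) that was higher in the first group, with 0.461 in the authors' deposited table and 12 positions with an FDR under 0.05. In the Mediator kinase module, to which the product of Med12l is related, Cdk8 had 1 region over coding sequence with -0.385 and Cdk19 had 1 in an intron with 0.307 in the authors' deposited table, and neither region held a position with an FDR under 0.05.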

How the data were processed

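Whole-genome bisulfite libraries from 2 WT and 2 IRF8KO microglia samples were made, per the labels' protocols, from 50 ng of DNA with 8 cycles of PCR and read as pairs of 75 bp. Bismark, Trim Galore and mm10 are named, per the submitters' processing notes, with no version; the tool behind the group comparison is not given in the sources used here. Deposited tables hold differences in level from 0 to 1 (first minus second group in every row), each with a p-value and FDR, and scores (a test statistic, dispersions, a posterior probability and an area score per region), per the file headers. No per-sample column was left unused (0). Depth per sample is unknown.

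Rows in chr3:58995825-59328682 were taken, annotated with GENCODE M21 on GRCm38, and grouped in clusters within 500 bp. The deposited row numbers served as an index of tested positions, since their span equalled the number of cytosines in 3380 of 3387 regions. Called positions had a deposited FDR under 0.05. The members and lists were chosen with earlier results of these data known, and 1 gene of the lists is not reported here. Text names all member genes, every region, the lowest FDR of each region or cluster with a called position, list genes with a region within 10000 bp, and neighbouring genes within 500000 bp with a region. Apart from the bases shown before Gpr171 and the windows searched for motifs, promoter sequences were not used. Helper functions in Python 3.11.15 (pandas 2.3.3, numpy 2.4.6) were checked on made-up positions. Tests over samples were not run, and the smallest p an exact permutation of 2 against 2 allows is 0.333.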

Additional observations from a re-analysis of the deposited data

How the results depend on the processing

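No paired analysis was possible because values of single samples are not part of these tables, and for the same reason a coverage minimum and the leaving out of each sample were not run. Of 24 alternatives, 17 left the value within 1.5 times a count, within the 95% Clopper-Pearson interval of a share (counting error only) or within the median SE of a difference. The 156 listed positions formed 24 clusters. The 50 positions with an FDR under 0.05 fell to 26 with an FDR under 0.01, to 14 under 0.001 and to 32 where both groups had a dispersion of their own, that is, one other than the most common value. The share of positions lower in the first group, 67.9%, was 90.0% among those with an FDR under 0.05, 58.3% over clusters and 51.6% outside the regions. In each of these settings it stayed above 50%, but outside the regions hardly so. Depth limits every difference, and it is unknown here.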

Other observations

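Positions that are not on a CpG of the reference were fewer here than elsewhere. They were 18 of the 156 listed positions (11.5%), against 22.0% of all listed positions. None of the 18 had a dispersion of its own in both groups, beside 49 of 59168 such positions over the genome. Of the 18, 6 had an FDR under 0.05 in the authors' deposited table, beside 13974 of the 59168. In P2ry12, 5 of 71 listed positions were off CpG, and in Gpr171 5 of 25. One of the P2ry12 positions, at 59218203 in the coding sequence, had an FDR of 2.28e-05 (difference -0.521, SE 0.0886) in the authors' deposited table, the second lowest of its region, and is the single capital in the coding start sequence. These positions were chosen after their values were seen.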
